A study of Homo sapiens with 6 samples.

Results

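The genes described here are 10 genes of methionine and polyamine metabolism, out of 60624 genes in the deposited expression table. MAT2A, MAT2B and METTL16 belong to the synthesis of S-adenosylmethionine and its control, AHCY, MTR and MTRR to the methionine cycle, and ODC1, AMD1, SRM and SMS to polyamine synthesis. They were found in the table by their gene symbols, and the set was chosen by a model that had already seen the difference between siCEP20 and siCTR in these same libraries. Their differences between the groups are therefore given as a description, with standard errors and with no test.

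S-adenosylmethionine is the methyl donor of the cell. MAT2A makes it from methionine and ATP, methyltransferases turn it into S-adenosylhomocysteine, AHCY splits that into homocysteine and adenosine, and MTR with its reductase MTRR remethylates homocysteine to methionine. A side branch decarboxylates S-adenosylmethionine by AMD1 and uses the product to build spermidine and spermine on the putrescine made by ODC1. Tumour cells are known for a high demand on both branches, and the levels of MAT2A, ODC1 and AMD1 are known to be set by feedback from the products themselves.

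RNA-seq was made on A549 cells, a line of human lung adenocarcinoma cells, with 3 libraries transfected with an siRNA against CEP20 (siCEP20) and 3 with a control siRNA (siCTR), each for 3 days according to the labels. CEP20 encodes a centrosomal and ciliary protein, and the comparison asks what its loss does to the transcriptome of these cells. All 6 libraries come from this single cell line, and the labels neither name which of the study's 2 siRNAs against CEP20 was used nor say whether the libraries of a group came from separate cultures, so p-values measure only the spread between these libraries, which may be technical. The labels and the study's methods also differ on the medium, the RNA extraction and the input amount, and a label field calls the treatment a plasmid transfection.

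The values are TPM (transcript abundance corrected for transcript length and scaled to a sum of 1000000 in every library), so levels can be set side by side between genes, but the sequencing depth of each library is unknown. CEP20 itself was 29.2, 30.5 and 35.1 TPM in siCTR and 16.2, 15.3 and 17.3 TPM in siCEP20, which is 51.4% of the siCTR mean (log2 fold change -0.92, SE 0.0915, adjusted p = 0.000205 in limma; exact two-sided permutation p = 0.1, the smallest that 3 against 3 allows). Pearson's r of log2(TPM + 1) was 0.983 to 0.9857 within groups and 0.9637 to 0.9709 between them, and 14429 to 14600 genes reached 1 TPM in siCTR libraries against 14851 to 14987 in siCEP20 libraries. Of the markers checked, the 5 epithelial genes were expressed and rose, with EPCAM at 1.04 and 3.38 TPM, CDH1 at 11.8 and 23.2 TPM and KRT8 at 1587 and 2292 TPM in siCTR and siCEP20. Of 6 alveolar type II markers the surfactant genes and NKX2-1 were at or near 0 in every library, and ABCA3 rose from 17.4 to 20.5 TPM (adjusted p = 0.0303). Among 6 markers of blood, vessel and stromal cells COL1A1 alone was above 1 TPM, at 5.52 TPM in siCTR and 18.9 TPM in siCEP20, while PTPRC, PECAM1, CDH5, COL3A1 and HBB were at or near 0. The part of these marker differences in the results was not tested, and in bulk RNA fewer cells of a type and less RNA per cell cannot be told apart. A single row, the mitochondrial pseudogene MTATP8P1, held 23886 TPM in siCTR 1 and 51263 TPM in siCEP20 1 and 0 in the other 4 libraries, so TPM of all other genes in these libraries are scaled down by it.

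All 10 genes passed the filter on low values (mean TPM of 1 or more), which left 14778 genes. Across those genes 11.2% were called higher and 4.61% lower, a call being an adjusted p under 0.05 with a fold change over 1.5 or under 0.67, and of the 10 genes 0 were called higher and 2, MAT2A and AMD1, lower. By adjusted p alone, 30.2% of all tested genes were higher and 13.2% lower, against 2 (MTR and SMS) and 3 (MAT2A, ODC1 and AMD1) of the 10. The 3 libraries of each group did not overlap for 38.4% of tested genes on the higher side and 17% on the lower side, against 4 and 5 of the 10, with SRM the gene whose groups overlapped. These counts were fixed in part by how the genes were chosen, and nothing is read from them. The median log2 fold change was -0.11 over the 10 genes and 0.13 over all tested genes, so the median gene of the table sat slightly higher in siCEP20. The share of higher among all called genes depended on the scaling: 1659 higher and 682 lower in TPM as deposited became 894 higher and 1103 lower after median-of-ratios scaling.

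MAT2A, the catalytic subunit of the methionine adenosyltransferase of non-liver cells, was the most abundant of the 10 in control cells and differed most. It was 631, 610.0 and 644 TPM in siCTR and 293, 296 and 275 TPM in siCEP20. Every siCEP20 library was far below every siCTR library, and the CV within the groups was 2.75% and 3.93%. The means were 628 ± 17.3 and 288 ± 11.3 TPM (SD, n = 3 each), so siCEP20 held 45.9% of the control level, a log2 fold change of -1.12 (SE 0.0508) on the log2(TPM + 1) scale and -1.25 relative to the median gene. A lower log2 fold change was found for 0.826% of all tested genes, and for 20 of the 1691 genes whose mean TPM was 100 or more. It lies at chr2:85539168-85545281 on the plus strand (hg38) with 9 exons, and 3 of its 6 annotated transcripts retain an intron. The deposited value sums the transcripts of the gene, so spliced and intron-retaining RNA cannot be told apart here.

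The 3' UTR of MAT2A is known as the place where METTL16, an N6-adenosine methyltransferase, binds hairpins and senses S-adenosylmethionine, with effects on the splicing and stability of the RNA. In the canonical transcript of the GENCODE annotation the 3' UTR is 1509 bases long (chr2:85543773-85545281, exon 9). It was searched on the sense strand for the 9-base motif of METTL16 in both known forms, TACAGAGAA and TACAGAAAA, and held 6 copies, 5 of the first form. The 6 windows of 30 bases are shown because this stretch of RNA is what links MAT2A and METTL16. Capitals mark the motif, and the windows lie in order at chr2:85543802-85543831, chr2:85544589-85544618, chr2:85544774-85544803, chr2:85544889-85544918, chr2:85545004-85545033 and chr2:85545112-85545141, plus strand.
site 1: tggcgtaggcTACAGAGAAgccttcaagct
site 2: tgtgatgtcaTACAGAGAAgtcacagggca
site 3: ctggtgtagcTACAGAGAAaccagcttcct
site 4: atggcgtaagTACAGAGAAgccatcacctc
site 5: caaggtgtccTACAGAAAAaccttgggtta
site 6: gctggtgtggTACAGAGAAgccagcttgtt
In each window the bases before the motif can pair with bases after it. The longest exact run among the 10 bases before the motif whose reverse complement lies in the 10 bases after it was 4 bases at site 1, 6 at site 5 and 5 at the other 4 sites. The cutoff of 4 equals the shortest of these runs, so all 6 MAT2A sites meet it by that choice. A run of at least 4 was found at 23.4% of the 907 motif copies in other 3' UTRs. At least 1 copy of the motif was present in 868 of 19532 protein-coding genes (4.44%) and in 591 of 12232 tested ones (4.83%), and no other 3' UTR held 6. None of the other 9 genes described here had a copy. These matches are letters in a reference sequence, not measured binding or methylation.

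**Figure D1:**
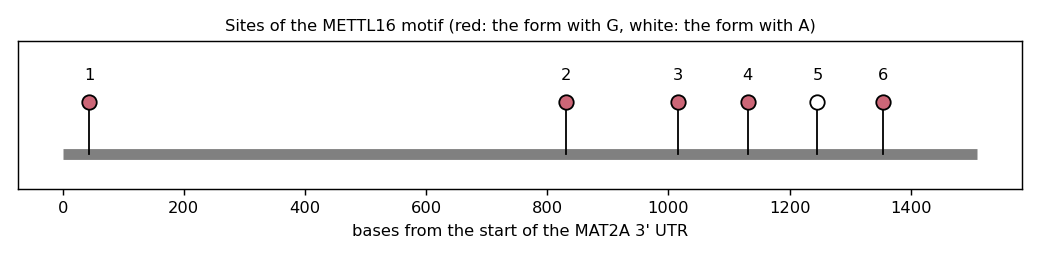
Map of the MAT2A 3' UTR (grey bar, in bases from its start) with the 6 copies of the METTL16 motif; red circles are the TACAGAGAA form and the white circle the TACAGAAAA form. Site 1 stands near the start at base 40 and sites 2 to 6 lie between bases 827 and 1350.

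The end of MAT2A overlaps GGCX, a gene on the opposite strand whose 3' end lies at base 85544720 of the same chromosome, so sites 3 to 6 lie in sequence that both genes share. GGCX was 33.4 ± 4.09 TPM in siCTR and 29.9 ± 1.02 TPM in siCEP20, groups that overlapped, and was thus far less abundant than MAT2A in either group. Whether the quantification used the strand of the reads is not given in the sources used here.

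METTL16 itself (chr17:2405562-2511891, minus strand) was 30.8, 30.5 and 35.4 TPM in siCTR and 41.9, 35.7 and 35.9 TPM in siCEP20. The groups were barely separate, with siCTR 3 just under the lowest siCEP20 library and siCEP20 1 standing above the rest. Its mean in siCEP20 was 117% of the control (log2 fold change 0.22, SE 0.0915), close to the 0.13 of the median gene, and after median-of-ratios scaling the log2 fold change was 0.076. MAT2B, the regulatory subunit that binds the MAT2A enzyme (chr5:163503114-163519558, plus strand), was 48.9, 62.8 and 49.6 TPM in siCTR and 46.4, 46.3 and 45.1 TPM in siCEP20. All siCEP20 libraries were lower, but siCTR 2 carried most of the gap. The log2 fold change was -0.21 (SE 0.0984) with all libraries, -0.10 without siCTR 2 and -0.36 after median-of-ratios scaling. Per library, MAT2A was 12.9, 9.71 and 13.0 times as abundant as MAT2B in siCTR and 6.31, 6.40 and 6.10 times in siCEP20. The ratio of catalytic to regulatory subunit RNA was thus 11.9 ± 1.87 and 6.27 ± 0.156, with no overlap. The ratio of MAT2A to METTL16 went from 19.6 ± 1.19 to 7.66 ± 0.656. These ratios carry the MAT2A difference that chose the set, and do not depend on the scaling between libraries.

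**Figure D2:**
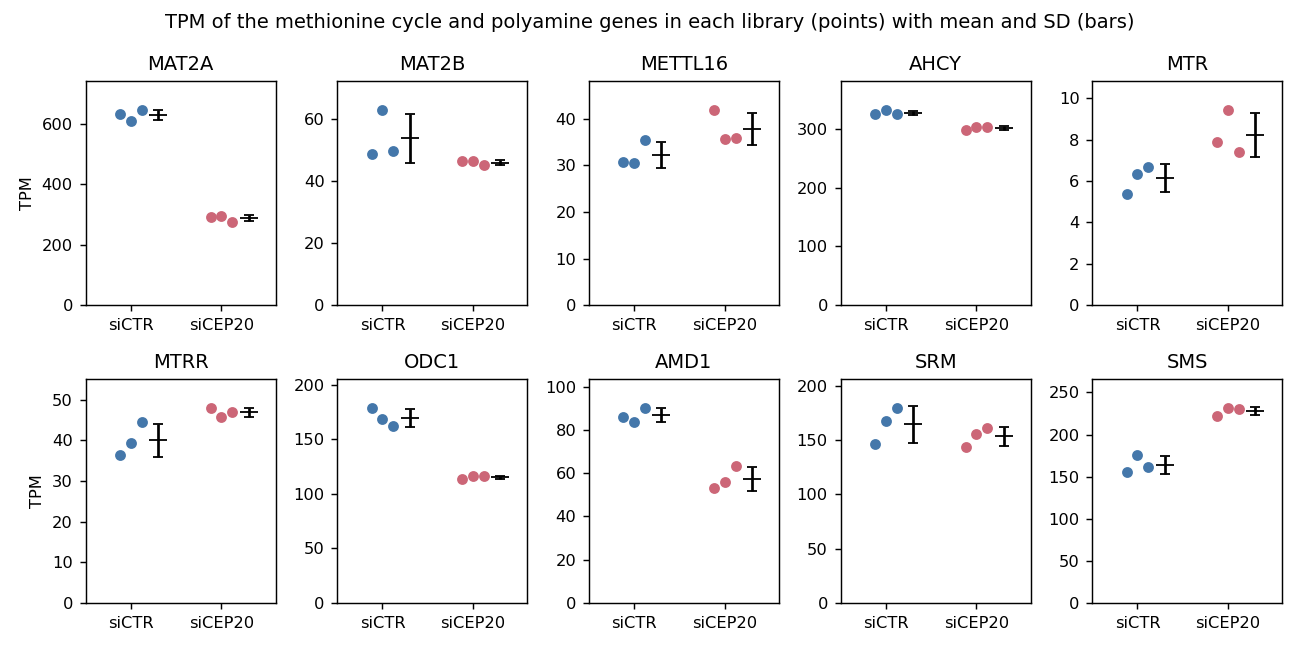
TPM of each of the 10 genes in the 3 siCTR (blue) and 3 siCEP20 (red) libraries, with the mean and SD beside the points; each vertical axis starts at 0 and has its own range. MAT2A, ODC1 and AMD1 were clearly lower and SMS clearly higher in siCEP20, and SRM overlapped.

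Of the genes of the cycle that follow MAT2A, AHCY was slightly lower and MTR and MTRR were higher in siCEP20. AHCY, the hydrolase of S-adenosylhomocysteine (chr20:34280268-34311802, minus strand), was 324, 331 and 324 TPM in siCTR and 298, 303 and 303 TPM in siCEP20, or 92.2% of the control. It was the gene with the least spread of all, with a CV of 1.23% and 1.00% in the groups, so that a log2 fold change of -0.12 (SE 0.0444) still separated them, and after median-of-ratios scaling it was -0.27. Because MAT2A was so much lower, the order of the pair changed: in siCTR libraries MAT2A was 1.95, 1.84 and 1.99 times as abundant as AHCY, and in siCEP20 libraries 0.984, 0.977 and 0.910 times. MTR, the cobalamin-dependent methionine synthase (chr1:236795260-236921278, plus strand), was the least abundant of the 10. Its values were 5.40, 6.35 and 6.69 TPM in siCTR and 7.89, 9.43 and 7.40 TPM in siCEP20. All siCEP20 libraries were higher, with a log2 fold change of 0.37 (SE 0.124) in TPM and 0.19 after quantile normalization. MTRR, which restores the cobalamin of MTR (chr5:7851186-7906025, plus strand), was 36.3, 39.4 and 44.4 TPM in siCTR and 48.0, 45.8 and 47.1 TPM in siCEP20. Here siCTR 3 lay close to the siCEP20 group, and the log2 fold change of 0.23 (SE 0.0824) was 0.082 after median-of-ratios scaling. MTRR overlaps FASTKD3 on the opposite strand, which was 11.1 ± 0.753 and 12.6 ± 0.249 TPM. The ratio of MTRR to MTR was 6.72, 6.20 and 6.63 in siCTR and 6.08, 4.86 and 6.36 in siCEP20, groups that overlapped.

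Polyamine synthesis split into genes that were lower, a gene that did not separate and a gene that was higher. ODC1, the ornithine decarboxylase that makes putrescine (chr2:10439968-10448327, minus strand), was 179, 169 and 162 TPM in siCTR and 114, 116 and 116 TPM in siCEP20. The siCEP20 libraries lay within a few TPM of each other and all below the control. The mean was 67.9% of the control (log2 fold change -0.55, SE 0.0556). AMD1, the decarboxylase that commits S-adenosylmethionine to polyamines (chr6:110874770-110898879, plus strand), was 86.1, 83.8 and 90.1 TPM in siCTR and 53.0, 55.7 and 63.5 TPM in siCEP20. Again no library of one group reached the other, and siCEP20 3 was the nearest. The mean was 66.2% of the control (log2 fold change -0.59, SE 0.0779). The pair sat on either side of the fold change threshold of 0.67, ODC1 just outside and AMD1 just inside. AMD1 was -0.54 without siCEP20 1 and -0.57 without siCEP20 2, and -0.58 when TPM were rescaled without the MTATP8P1 row, a setting added after seeing the data. In each of these 3 settings 1 of the 10 genes, MAT2A, was called lower. Without siCTR 3 AMD1 was -0.56 and ODC1 -0.59, so that ODC1 was called in place of AMD1, and after median-of-ratios scaling or quantile normalization MAT2A, ODC1 and AMD1 were all called. These calls come from the values that chose the genes, so they are a description and their lasting under other settings is no support.

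SRM, which makes spermidine from putrescine (chr1:11054584-11060020, minus strand), was 146, 168 and 179.7 TPM in siCTR and 144, 156 and 162 TPM in siCEP20. The groups overlapped widely and the log2 fold change was -0.09 (SE 0.0839), or -0.18 without siCTR 1, -0.03 without siCTR 3 and -0.24 after median-of-ratios scaling. SMS, which adds the next aminopropyl group to make spermine (chrX:21940709-21994837, plus strand), was 155, 176 and 161 TPM in siCTR and 222, 232 and 230.0 TPM in siCEP20. Every siCEP20 library was higher, at a mean of 139% of the control (log2 fold change 0.47, SE 0.0601), and this was the largest difference on the higher side among the 10. Under the 15 alternative settings the log2 fold change of SMS stayed between 0.32 and 0.52, that of ODC1 between -0.70 and -0.52 and that of AMD1 between -0.74 and -0.54. Settings that changed only the filter, the variance, the block or the summing of symbols could not move these values.

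Within a library the balance of these enzymes differed accordingly. SMS and SRM stood at the same level in siCTR, with a ratio of 1.06, 1.05 and 0.896, and SMS stood above SRM in siCEP20, with 1.54, 1.49 and 1.42. AMD1 was 0.554, 0.476 and 0.559 of SMS in siCTR and 0.239, 0.240 and 0.276 of it in siCEP20. The ratio of ODC1 to AMD1, the rate-limiting pair, was 1.96 ± 0.143 and 2.02 ± 0.170 and overlapped, so these decarboxylases were lower by a like factor. Ratios were not tested, since they were formed from the values that chose the genes.

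**Figure D3:**
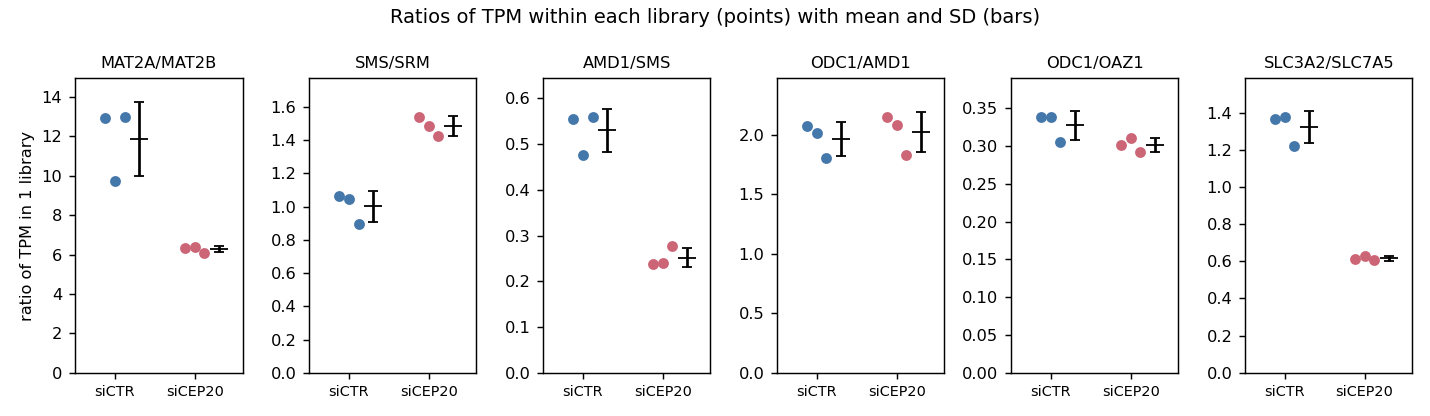
Ratios of TPM between pairs of genes in each of the 3 siCTR (blue) and 3 siCEP20 (red) libraries, with mean and SD (bars) and each axis from 0. MAT2A/MAT2B, AMD1/SMS and SLC3A2/SLC7A5 were lower and SMS/SRM higher in siCEP20, while ODC1/AMD1 overlapped between the groups.

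By level, the order in siCTR was MAT2A, AHCY, ODC1, SRM, SMS, AMD1, MAT2B, MTRR, METTL16 and MTR, from a mean of 628 down to 6.15 TPM. ODC1, SRM and SMS were not distinct in it, since the ranges of ODC1 and SRM and of SRM and SMS overlapped. In siCEP20 the order was AHCY, MAT2A, SMS, SRM, ODC1, AMD1, MTRR, MAT2B, METTL16 and MTR, and only MTRR and MAT2B overlapped as neighbours. The CV within a group ran from 1.00% for AHCY in siCEP20 to 14.6% for MAT2B in siCTR, where siCTR 2 stood apart. MAT2B had a CV of 1.53% in siCEP20, so the spread between libraries differed by group as well as by gene.

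**Figure D4:**
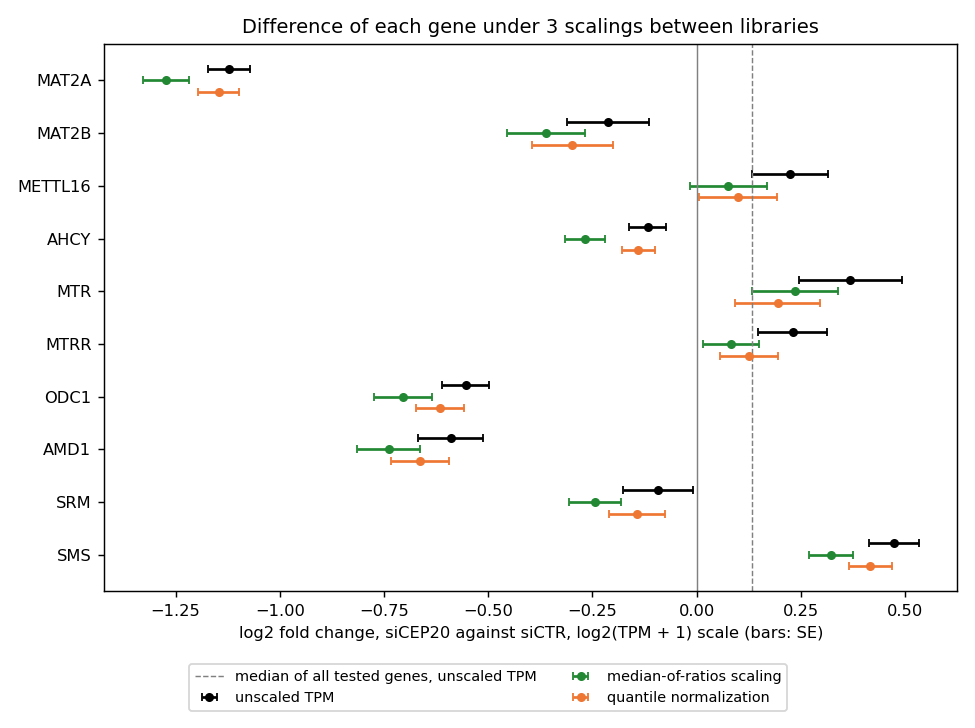
Log2 fold change (siCEP20 against siCTR, log2(TPM + 1) scale, bars are SE) of the 10 genes in TPM as deposited (black) and after median-of-ratios scaling (green) or quantile normalization (orange); the dashed line is the median of all tested genes at 0.13. Scaling moved every gene the same way but none across 0, MAT2A staying at -1.12 or below in these 3 fits.

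A promoter window of ODC1 is shown because ODC1 is a textbook target of MYC, whose dimers bind CACGTG. RefSeq windows (GRCh38.p14, 250 bases before to 50 after a start, 16 windows of 9 of the genes, no entry for MTRR) were searched for CACGTG, which reads the same on both strands. The window at chr2:10447963-10448262 on the minus strand held 2 copies, in capitals below, that begin at -29 and 5 bases from its RefSeq start. It lies inside the gene as annotated by GENCODE, whose 5' end is at base 10448327. The ODC1 window that covers this end, chr2:10448278-10448577, held 0.
ODC1 promoter: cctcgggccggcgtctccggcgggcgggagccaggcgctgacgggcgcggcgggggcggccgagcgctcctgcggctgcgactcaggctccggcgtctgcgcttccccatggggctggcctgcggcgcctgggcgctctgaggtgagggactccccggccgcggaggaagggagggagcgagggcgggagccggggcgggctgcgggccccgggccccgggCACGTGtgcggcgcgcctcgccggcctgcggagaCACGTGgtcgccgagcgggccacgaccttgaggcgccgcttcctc
A window of SRM at chr1:11059969-11060268 on the minus strand held 1 copy, at -199 bases, and no window of the other 7 genes held any, AMD1 and SMS included. Among all promoters, 7.26% of 35116 windows and 8.77% of 27305 genes had a copy. Of the genes with a match, ODC1 stood at 67.9% of the control and SRM at 93.5%, with groups that overlapped for SRM. A part of MYC in these values was not tested.

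The genes around these 10 were taken from lists of 77 further genes in 10 groups, of which 70 were tested, and by adjusted p alone 22 (31.4%) were higher and 21 (30%) lower, against the 30.2% and 13.2% of all tested genes, and a median log2 fold change of 0.04. The split was 11 higher and 29 lower after median-of-ratios scaling and 15 higher and 26 lower after quantile normalization. The shares of all tested genes by adjusted p alone under these scalings are not given here. Calls over all genes also turned, from 1659 higher and 682 lower to 894 and 1103 after median-of-ratios scaling, so nothing is read from these splits. The 77 genes too were listed with earlier results of these data known. Upstream of MAT2A, the subunits of the methionine and leucine carrier moved in opposite directions. The transporting chain SLC7A5 rose from 845 ± 44.8 to 1192 ± 46.5 TPM (log2 fold change 0.50, limma adjusted p = 0.000334), and its partner chain SLC3A2 fell from 1114 ± 41.5 to 734 ± 29.2 TPM (-0.60, adjusted p = 0.000103). No overlap was seen in their ratio, 1.36, 1.38 and 1.22 in siCTR and 0.613, 0.629 and 0.606 in siCEP20. MAT1A, the liver form of the synthetase, stayed at 0 to 0.145 TPM in every library, beside at least 275 TPM of MAT2A.

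Around MTR, 4 of 11 tested folate and remethylation genes rose (36.4%) and 2 fell (18.2%), close to the 30.2% and 13.2% of all tested genes. MMADHC, which traffics cobalamin to MTR, fell furthest, from 129.9 ± 6.10 to 65.1 ± 3.67 TPM (log2 fold change -0.99, adjusted p = 4.91e-05), while MTR itself was higher in every siCEP20 library. TYMS (0.38, adjusted p = 0.00531) and MTHFD1L (0.28, adjusted p = 0.00791, but 0.157 after median-of-ratios scaling) rose and MTHFD2, the mitochondrial folate dehydrogenase, fell (-0.27, adjusted p = 0.0104). The betaine route of remethylation, BHMT, was listed at 0 in all libraries. Beside AHCY, 1 of 4 genes of the homocysteine branch passed, AHCYL1 (0.21, adjusted p = 0.0468), but it did not pass in 8 of 15 alternative settings. CBS (-0.19, adjusted p = 0.0796) and AHCYL2 (0.19, adjusted p = 0.0838) did not pass, although CBS passed after median-of-ratios scaling (-0.34, adjusted p = 0.00934) and quantile normalization (-0.32, adjusted p = 0.0102).

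Around ODC1, AMD1, SRM and SMS, 11 of 23 tested genes fell and 3 rose, beside 13.2% lower and 30.2% higher over all tested genes. Of the antizyme genes, whose products bind ODC1 protein and send it to the proteasome, OAZ1 fell from 519 ± 18.1 to 382 ± 12.3 TPM (-0.44, adjusted p = 0.000373), and the ratio of ODC1 to OAZ1 was 0.328 ± 0.0189 and 0.302 ± 0.00915, groups that overlapped. The antizyme inhibitor AZIN2 fell at a level of a few TPM (-0.58, adjusted p = 0.02). AZIN2 did not pass without siCTR 1, siCEP20 1 or siCEP20 3, nor without the filter on mean TPM. OAZ2 (-0.20, adjusted p = 0.181, but 0.0343 after median-of-ratios scaling) and AZIN1 (0.00, adjusted p = 0.984) did not pass, and no gene of the 5 rose. All 4 genes of polyamine catabolism passed, 3 lower and 1 higher. SAT2 fell from 118 ± 6.51 to 71.1 ± 2.00 TPM (-0.72, adjusted p = 0.000109), PAOX (-0.60, adjusted p = 0.0316) and the acetyltransferase SAT1 (-0.21, adjusted p = 0.0347) fell, and the spermine oxidase SMOX rose (0.28, adjusted p = 0.0207), so SMOX and SMS, which consume and make spermine, were both higher. PAOX, SAT1 and SMOX did not pass in 6 of 14, 6 of 15 and 5 of 15 settings, single libraries left out among them. Beyond these, SAT1 did not pass after quantile normalization, where it was 0.040 (limma adjusted p = 0.645). Of the eIF5A hypusination genes, the protein modification built from spermidine, 3 of 4 fell: EIF5A (-0.24, adjusted p = 0.00294, but 0.972 after quantile normalization), DOHH (-0.35, adjusted p = 0.00831) and DHPS (-0.40, adjusted p = 0.0115). In the salvage of methylthioadenosine, the by-product of SRM and SMS, ADI1 (-0.49, adjusted p = 0.000869) and ENOPH1 (-0.29, adjusted p = 0.0155, not passing without siCTR 2 or siCEP20 3) fell and APIP rose (0.47, adjusted p = 0.00427). Among precursor and transport genes ATP13A2 rose (0.28, adjusted p = 0.0114, but 0.13 after median-of-ratios scaling and 0.0974 after quantile normalization), OAT fell (-0.29, adjusted p = 0.0132) and ARG2 did not pass (-0.48, adjusted p = 0.0798, but 0.0421 and 0.0314 after these scalings and 0.041 without the variance trend).

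On the side of METTL16 and the use of S-adenosylmethionine, 8 of 14 genes of N6-methyladenosine and MAT2A RNA processing rose (57.1%) and 3 fell (21.4%). Of 14 methyltransferase genes, 5 rose (35.7%) and 4 fell (28.6%), beside 30.2% higher and 13.2% lower over all tested genes. WTAP (0.57, adjusted p = 0.000455), YTHDF1 (0.55, adjusted p = 0.00048), ZC3H13 (0.70, adjusted p = 0.000576) and NUDT21, a cleavage factor subunit known to act on MAT2A RNA (0.38, adjusted p = 0.0152, a call lost without siCEP20 2 and without the filter on mean TPM), were among those that rose. CARM1, an arginine methyltransferase, rose from 45.6 ± 1.81 to 80.8 ± 5.42 TPM (0.81, adjusted p = 0.000108), as did ICMT (0.57, adjusted p = 0.00105) and SETD2 (0.55, adjusted p = 0.00283), and PRMT5 did not pass (0.10, adjusted p = 0.222).

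**Figure D5:**
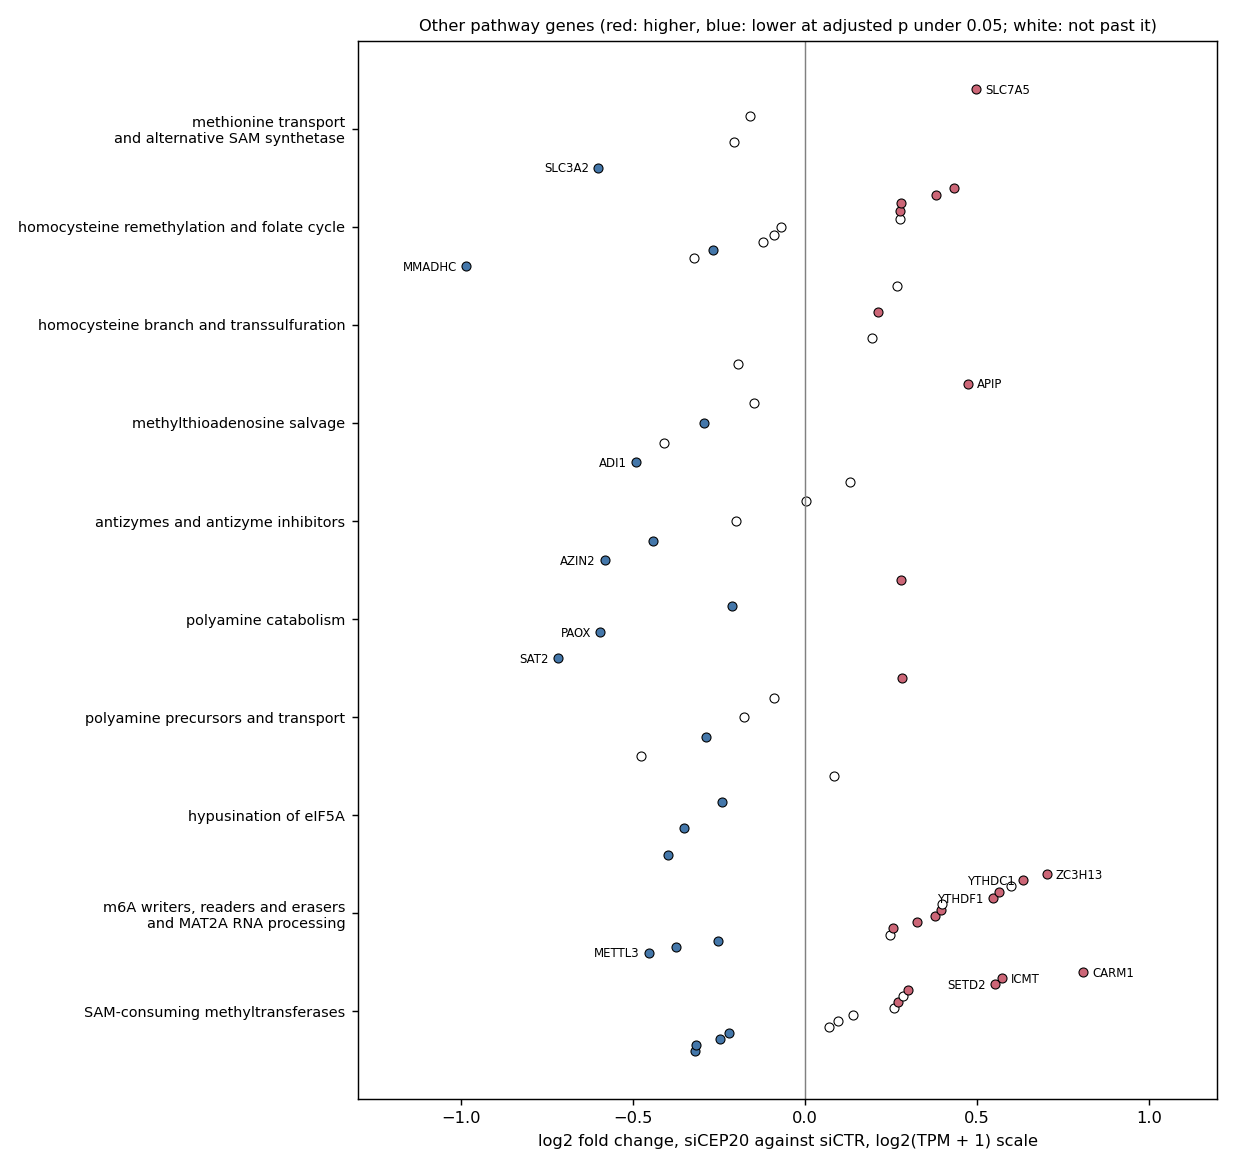
Log2 fold change (siCEP20 against siCTR, log2(TPM + 1) scale) of the 70 tested pathway genes other than the 10, by list; each point is 1 gene, red higher and blue lower at an adjusted p under 0.05, white not past it, with names beside most points past 0.45. MMADHC at -0.99 and CARM1 at 0.81 are the extremes.

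Among 8806 genes whose mean TPM was 10 or more, those whose log2(TPM + 1) followed MAT2A most closely over the 6 libraries were PSMB3 (Pearson's r 0.9996), PSMD4 (0.9987), SERTAD1 (0.9986), C12orf57 (0.9983) and EEF1AKMT4 (0.9981). All 5 were lower in siCEP20, by log2 fold changes of -0.48, -0.48, -0.94, -1.06 and -1.26, so these values mostly restate the difference between the groups that MAT2A shares with them. A correlation over 0.95 with MAT2A was reached by 754 genes.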

How the data were processed

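The authors trimmed reads with fastp 0.20.1, aligned them to hg38 with HISAT2 2.1.0, assembled transcripts with StringTie 2.0 and deposited gene TPM of 6 libraries in a table, where every column matched a sample by name. The authors used DESeq2, whose counts are not used here. The libraries were poly(A)-selected and made with a dUTP strand-marking kit, per the methods; the annotation is not given in the sources used here. TPM hold no read counts, so depth is unknown and no counting interval was computed.

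Genes were named with GENCODE release 44. Groups were compared on log2(TPM + 1) for the 14778 genes whose mean TPM was 1 or more, using limma (version 3.58.1, R version 4.3.3) with a mean-variance trend in the moderated variance and no scaling between libraries, and Benjamini-Hochberg adjustment covered all of them. A fold change on this scale understates low genes. The fit was tested on simulated data, where 187 of 200 changed and 3 of 14578 unchanged genes were called. These data had independent noise and no shift between libraries, and their calls used the fold change threshold. They give no error rate for counts by adjusted p alone. The changed genes were drawn from above the lowest levels tested and given a change larger than the fold threshold. The simulation thus gives no detection rate for low genes or for changes near that threshold. Motifs were searched in 3' UTRs of canonical GENCODE transcripts and in RefSeq promoter windows. The alternatives were another pseudocount, filter and scaling, a fit without the trend, summed symbols, a replicate block, each library left out, and the table without MTATP8P1. The genes, lists and tests were chosen with earlier results of these data known. Named were CEP20, the 10 genes, MTAP, MAT1A, OAZ1, AZIN1, SAT1, EIF5A, MTHFD2, SLC7A5, PRMT5 and NUDT21, up to 3 genes per list with the smallest adjusted p, and the 5 genes most like MAT2A. The cell type markers were listed too. BHMT, GNMT, GGCX, FASTKD3 and MTATP8P1 fall outside this rule and were named after their values were seen.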

Additional observations from a re-analysis of the deposited data

How the results depend on the processing

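MAT2A kept a log2 fold change of -1.27 to -1.09 over 15 alternative settings, -1.27 after median-of-ratios scaling and -1.14 to -1.09 without 1 library. Of 150 values of the 10 genes, 137 moved by less than the spread between replicates, 13 moved by more, under median-of-ratios scaling or quantile normalization, and 0 changed sign. The other filters, the fit without the trend, the replicate block and the summed symbols could not change these log2 fold changes. Part of the 137 was thus fixed in advance. Over all genes, calls were 894 higher and 1103 lower after median-of-ratios scaling, 923 higher after quantile normalization, and 4457 higher and 1944 lower without the fold threshold. By adjusted p alone, other pathway genes numbered 11 higher and 29 lower after median-of-ratios scaling and 15 higher and 26 lower after quantile normalization. The matching shares of all tested genes under these scalings are not given, so nothing is read from these pathway counts. AZIN1 was -0.15 after that scaling, -0.075 after quantile normalization and -0.082 to 0.046 without 1 library, SAT1 was 0.040 after quantile normalization, and PRMT5 was -0.054 after median-of-ratios scaling; the cause was not tested. Without 1 library, the adjusted p of AHCYL1 reached 0.139 (siCEP20 3), of SAT1 0.109 (siCTR 2), of PAOX 0.107 (siCTR 1), of AZIN2 0.0681 (siCTR 1), of SMOX 0.0643 (siCEP20 3), of ENOPH1 0.0571 (siCTR 2) and of NUDT21 0.0562 (siCEP20 2), while MTAP passed without siCTR 2 (0.0439), CBS without siCTR 2 (0.0481) and OAZ2 without siCEP20 2 (0.0237). Without the filter on mean TPM, NUDT21 (0.0592) and AZIN2 (0.0685) did not pass. With the replicate block, calls were 1654 higher and 694 lower, and other pathway genes 22 higher and 20 lower. Same-numbered libraries correlated in their deviations by 0.157, -0.0614 and -0.0623, and 2 of 6 correlated best with their own number. MTATP8P1 was above 0 only in siCTR 1 and siCEP20 1, which share a number. With 3 libraries per group these values cannot show whether the numbers pair the libraries. Unknown depth limits what can be said of the lowest gene, MTR.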

Other observations

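MTAP, which salvages methylthioadenosine, and its neighbour CDKN2A on chromosome 9 are both known as genes lost together in many tumours. MTAP was 12.5, 9.75 and 20.4 TPM in siCTR and 11.5, 8.91 and 9.67 TPM in siCEP20, groups that overlapped (limma adjusted p = 0.182). CDKN2A stayed at 0 to 0.608 TPM in every library. GNMT, a methyltransferase that consumes S-adenosylmethionine in liver, was under the filter, with 0.362, 0.334 and 0.185 TPM in siCTR and 0.505, 1.27 and 0.957 TPM in siCEP20, and was not tested.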
